A study of Mus musculus with 8 samples.

Results

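The genes described here encode the proteasome, the protease complex that degrades ubiquitin-tagged proteins. They were chosen by symbol, as every listed gene whose symbol begins with Psm, then a letter from a to g, then a number. Of the 17518 genes listed, 49 matched, and all 49 were among the 11911 genes tested. They cover the rings of the 20S core, the interferon-inducible immunoproteasome subunits, the 19S cap, the PA28 and PA200 activators, the inhibitor PI31 and the assembly chaperones. Psmc3ip matched by its symbol only: it encodes a recombination cofactor and is not a proteasome gene, so 48 of the 49 are proteasome genes.

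The 20S core is a barrel of stacked rings, with outer rings of alpha subunits that gate the entry and inner rings of beta subunits, some of which carry the peptide-cutting sites. The 19S cap binds ubiquitin chains, unfolds the substrate with a ring of ATPases and feeds it into the core. In cells exposed to interferon gamma, and constitutively in many immune cells, Psmb8, Psmb9 and Psmb10 replace the catalytic subunits encoded by Psmb5, Psmb6 and Psmb7 in newly built cores, which alters the peptides offered to MHC class I.

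The question behind the series was how ROS-responsive nanoparticles, meant for imaging and treating acute lung injury, act on alveolar macrophages. Polyadenylated RNA was sequenced from MH-S, a single mouse alveolar macrophage line, in 8 libraries. The LPS+RCMNs group (n = 3) was given 100 ng/mL lipopolysaccharide (LPS, an outer membrane molecule of bacteria that macrophages sense) together with 1 µg/mL of nanoparticles named RCMNs, the LPS group (n = 2) was given LPS with no separate dose stated, and the control group (n = 3) was given phosphate-buffered saline. The labels name no genotype, time or separate cultures, so the spread behind each p-value is that between libraries and may be technical.

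The libraries held 18.6 to 21.2 M (mega) counts each. All 12 macrophage markers looked for were listed, and they summed to 6850.2 to 8625 CPM (counts per M of TMM-scaled library size) in LPS+RCMNs. The sums were 5959 to 7223 CPM in LPS and 5556 to 6485 CPM in control. Lyz2 held the largest part, at 1974 to 3818 CPM per library. Marco (0 to 1.32 CPM) and Siglecf (0 to 0.186 CPM) were near 0 in every library. Erythroid markers, which this cell line should lack, summed to 0.81 to 34.3 CPM in LPS+RCMNs, 4359 to 5624 CPM in LPS and 1.17 to 20.9 CPM in control. Neutrophil markers summed to 0.245 to 0.709 CPM in LPS+RCMNs, 5.15 to 5.33 CPM in LPS and 0.0931 to 0.139 CPM in control. Markers of lymphocytes, epithelium and of fibroblasts and endothelium each summed to at most 3.63 CPM in any library. LPS+RCMNs replicate 2 and control replicate 1 stood apart from the other libraries of their groups. Among all tested genes, LPS+RCMNs replicate 2 was the highest of its group for 44.0% and the lowest for 43.7%. For control replicate 1 these shares were 44.4% and 44.1%. The labels do not mark these 2 libraries, so fits without them rest on a choice made from the data.

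Transcripts of nearly the whole proteasome were more abundant in LPS than in control. The 49 genes summed to 15910 and 14860 CPM in LPS replicates 1 and 2, against 6683, 6363 and 6382 CPM in control replicates 1, 2 and 3, a ratio of group means of 2.38. Every LPS library lay above every control library for 46 of the 49 genes and below for 2, beside 37.5% and 38.6% of all tested genes. By edgeR's quasi-likelihood test, with calls at a Benjamini-Hochberg adjusted p below 0.05, 45 of the 49 rose, 2 fell (Psme4 and Psme2b) and 2 were not called (Psmb9 and Psmb11). Of all tested genes, 31.4% were called higher and 32.1% lower. The median log2 fold change of the 49 was 1.22, and that of all tested genes was -0.04. In bulk RNA, fewer cells of a type and less RNA per cell cannot be told apart, and the part of the erythroid and neutrophil transcripts in the LPS values was not tested.

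Proteasome genes are short and abundant, and in the LPS libraries levels depended on gene length. The median length implied by the deposited values was 1221 bases for the 49 genes, against 2825 bases for all tested genes, and the median FPKM (fragments per kb of gene and M reads) was 134 against 10.5. Across all tested genes, which are not independent replicates, fold change in LPS versus control and length had a rank correlation of -0.58, and across the 49 it was -0.54. The comparison with genes of like length and level therefore came from a fit in which each library's smooth surface on length and mean level was removed, called the length-and-level-matched fit here. In that fit 21 of the 49 rose, 4 fell (Psmb9, Psmg2, Psme1 and Psme2b) and 24 were not called, beside 21.6% of all tested genes called higher and 21.6% called lower. The median log2 fold change of the 49 was then 0.24, beside -0.02 for all tested genes. Without the 2 libraries that stood apart, 46 were called higher and 2 lower before matching, beside 38.6% and 36.3% of all tested genes, and 34 higher and 4 lower after it, beside 31.1% and 30.9%.

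**Figure D1:**
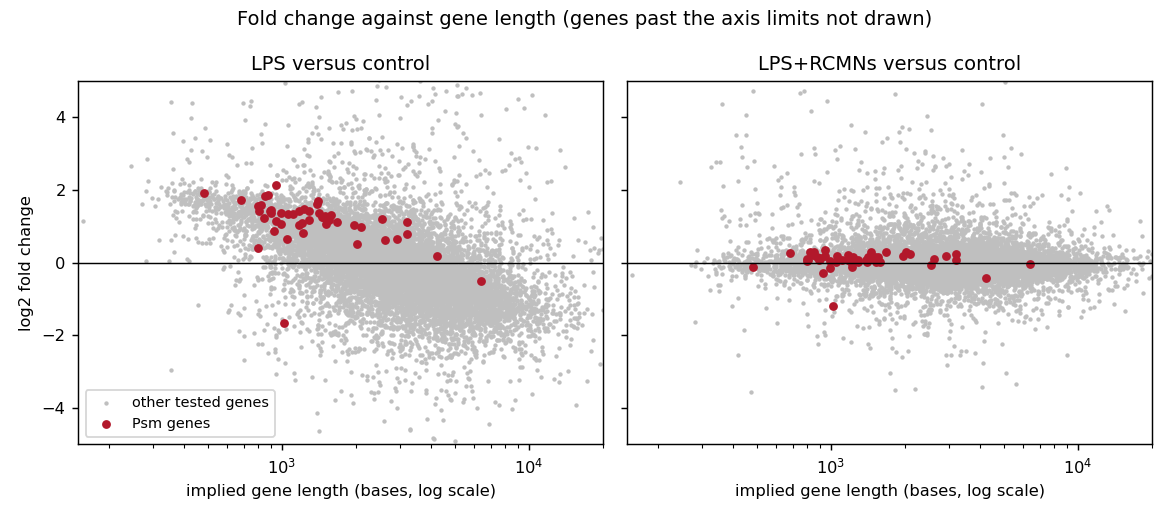
Each point is a tested gene, with its implied length in bases on a log scale and its log2 fold change for LPS versus control (left) and LPS+RCMNs versus control (right); red points are the 49 Psm genes and grey points all other genes. Short genes sit high and long genes low in the left panel (rank correlation -0.58), and nearly all red points lie in the short, high part; the right panel shows little slope (-0.09).

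The counts by role differed between the fits of LPS versus control. All 6 ATPases of the 19S base rose in both fits, as did all 3 chaperones that assemble that base. Of the 7 alpha-ring genes, by contrast, 7 rose without matching and 2 rose with it. Of the 4 non-catalytic beta-ring genes, 4 rose without matching and none with it. These counts stand beside 31.4% of all tested genes called higher without matching and 21.6% with it. Without the 2 libraries that stood apart, the matched fit called 5 of the 7 alpha-ring genes and 3 of the 4 non-catalytic beta-ring genes higher. Of all tested genes, 31.1% were then called higher, so the counts turn on those libraries. The median matched log2 fold change moved little: 0.14 with and 0.14 without them in the alpha ring. In the non-catalytic beta ring it was 0.18 with them and 0.21 without. The 3 catalytic beta genes had a median log2 fold change of 1.84 before and 0.47 after matching, and the 3 immunoproteasome genes of 0.83 before and -0.05 after. No difference between roles was tested.

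**Figure D2:**
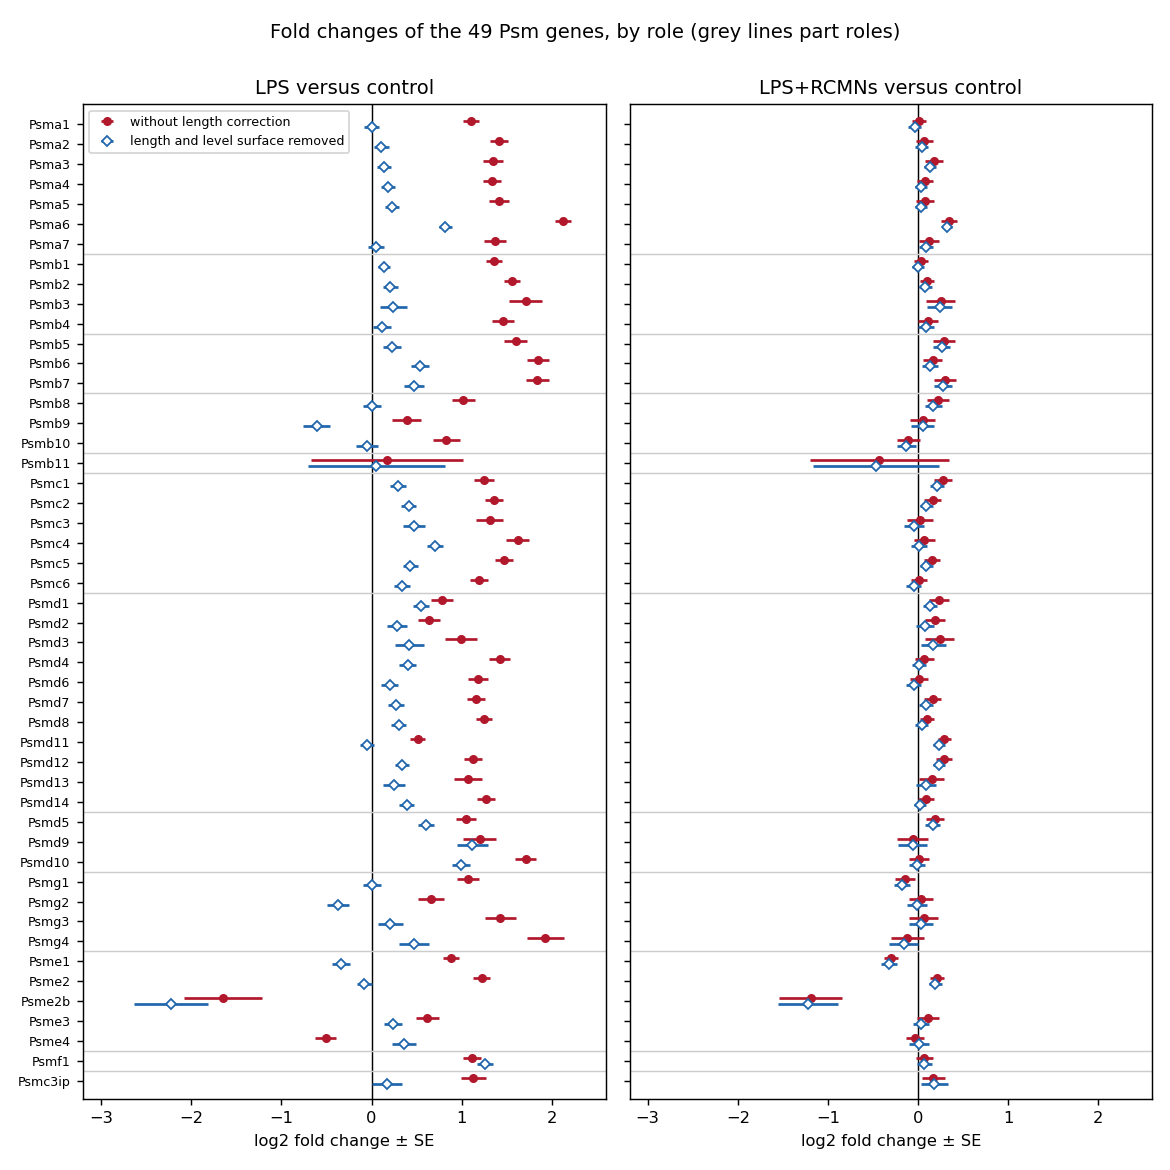
Log2 fold changes with standard errors for all 49 genes, grouped by role, for LPS versus control (left) and LPS+RCMNs versus control (right); filled circles are without length correction and open diamonds are with the length and level surface removed. On the left the medians are 1.22 and 0.24, and Psmf1, Psmd9 and Psmd10 keep the highest values after removal; on the right nearly all values lie near 0.

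Psma6, an alpha-ring subunit, had the largest fold change of the 49 for LPS versus control before matching. It stood at 221, 257 and 219 CPM in LPS+RCMNs, at 800.1 and 800.2 CPM in LPS and at 185, 185 and 181 CPM in control. The 3 groups did not overlap. By edgeR's quasi-likelihood test its log2 fold change for LPS versus control was 2.12 ± 0.09 (SE; adjusted p = 8.83e-07), and 0.82 ± 0.07 (adjusted p = 6.28e-05) in the matched fit. Psma1, also of the alpha ring, had the smallest of that role: 173, 199.7 and 189 CPM in LPS+RCMNs, 389 and 406 CPM in LPS and 192, 185 and 182 CPM in control, with a log2 fold change for LPS versus control of 1.10 ± 0.09 before matching and 0.00 ± 0.08 after. In the non-catalytic beta ring, Psmb3 had the largest log2 fold change, 1.71 ± 0.18, with 120.5, 180.5 and 127 CPM in LPS+RCMNs, 426 and 361 CPM in LPS and 138, 112 and 109.9 CPM in control. Psmb1 had the smallest, 1.36 ± 0.09, with 133, 146 and 127 CPM in LPS+RCMNs, 344 and 337 CPM in LPS and 138, 128 and 130.2 CPM in control. Both groups of LPS values lay above all values of the other groups, and neither gene was called after matching, at log2 fold changes of 0.24 for Psmb3 and 0.14 for Psmb1.

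Each of the catalytic subunits of the standard core was more abundant per length than the immunoproteasome subunit that replaces it, and their fold changes in LPS were larger. Psmb5 (chymotrypsin-like site; chromosome 14, 54614120 to 54617995 in mm10) measured 140.4, 189 and 145 CPM in LPS+RCMNs, 412 and 371 CPM in LPS and 138, 125 and 126 CPM in control. Psmb6 (caspase-like site; chromosome 11, 70525324 to 70527858) measured 126, 151 and 125 CPM in LPS+RCMNs, 459 and 406 CPM in LPS and 134, 114 and 112 CPM in control. Psmb7 (trypsin-like site; chromosome 2, 38588046 to 38643952) measured 194, 252 and 194 CPM in LPS+RCMNs, 614 and 628 CPM in LPS and 194, 164 and 162 CPM in control. Every LPS value lay above every value of the other groups for all 3 genes. Their log2 fold changes for LPS versus control were 1.60 ± 0.13, 1.85 ± 0.12 and 1.84 ± 0.13, and in the matched fit Psmb6 (0.54 ± 0.10) and Psmb7 (0.47 ± 0.11) rose while Psmb5 was not called (0.23 ± 0.10; edgeR adjusted p = 0.089). Without the 2 libraries that stood apart, the matched fit called Psmb5 higher as well (0.27 ± 0.06, edgeR adjusted p = 0.00297).

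The immunoproteasome subunits moved less. Psmb8, which takes the place of Psmb5 and lies in the MHC region (chromosome 17, 34198195 to 34201454), measured 78.7, 103 and 85.6 CPM in LPS+RCMNs, 163 and 148 CPM in LPS and 83.7, 72.7 and 73.7 CPM in control. Psmb9, which takes the place of Psmb6 and lies in the same region (34182030 to 34187330), measured 8.98, 9.92 and 11.4 CPM in LPS+RCMNs, 12.5 and 13.1 CPM in LPS and 10.6, 10.1 and 8.64 CPM in control. Psmb10, which takes the place of Psmb7 (chromosome 8, 105935728 to 105938392), measured 31.9, 46.0 and 39.8 CPM in LPS+RCMNs, 75.2 and 75.0 CPM in LPS and 46.9, 40.3 and 39.7 CPM in control. LPS values were the highest for each, by a small margin for Psmb9. For LPS versus control, Psmb8 rose by 1.02 ± 0.13 and Psmb10 by 0.83 ± 0.15 on the log2 scale. Psmb9 was not called at 0.39 ± 0.16 (edgeR adjusted p = 0.0556), was called higher without the 2 libraries that stood apart (0.50 ± 0.15, adjusted p = 0.00913), and fell in the matched fit (-0.61 ± 0.15, adjusted p = 0.0116), so its direction turns with the scaling. It was also called higher without control replicate 1 (adjusted p = 0.0226), without LPS+RCMNs replicate 2 (0.0378) or without LPS+RCMNs replicate 3 (0.0446). Psmb8 (0.01 ± 0.10) and Psmb10 (-0.05 ± 0.12) were not called after matching.

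A share within a library is free of the scaling between libraries. Per length, in FPKM, the 3 immunoproteasome subunits made up 16.0%, 16.6% and 18.0% of the 6 catalytic subunits in LPS+RCMNs (16.9 ± 1.00%, SD), 11.0% and 11.0% in LPS (11.0 ± 0.0388%) and 18.2%, 18.6% and 18.4% in control (18.4 ± 0.159%). The groups did not overlap: both LPS libraries held the lowest shares and the control libraries the highest. The difference was -7.39 percentage points for LPS minus control (two-sided exact permutation test, p = 0.2, the smallest that 2 against 3 libraries allow) and -1.52 for LPS+RCMNs minus control (exact p = 0.1, the smallest that 3 against 3 allow), so neither could reach 0.05. Over all 15 tests of shares the lowest adjusted p was 0.231. By pair, Psmb8 made up 28.4% of Psmb8 plus Psmb5 in LPS+RCMNs, 21.8% in LPS and 29.3% in control. Psmb9 made up 7.64%, 3.20% and 8.09% of its pair in LPS+RCMNs, LPS and control, and Psmb10 11.4%, 7.76% and 14.6%. The Psmb8 and Psmb9 shares of LPS+RCMNs overlapped those of control. The pairs differ in length, at 1174 bases for Psmb8 against 822 for Psmb5 and 1221 for Psmb10 against 852 for Psmb7, while Psmb9, at 797 bases, is shorter than Psmb6, at 875. The part of length and level in these shares was not tested.

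**Figure D3:**
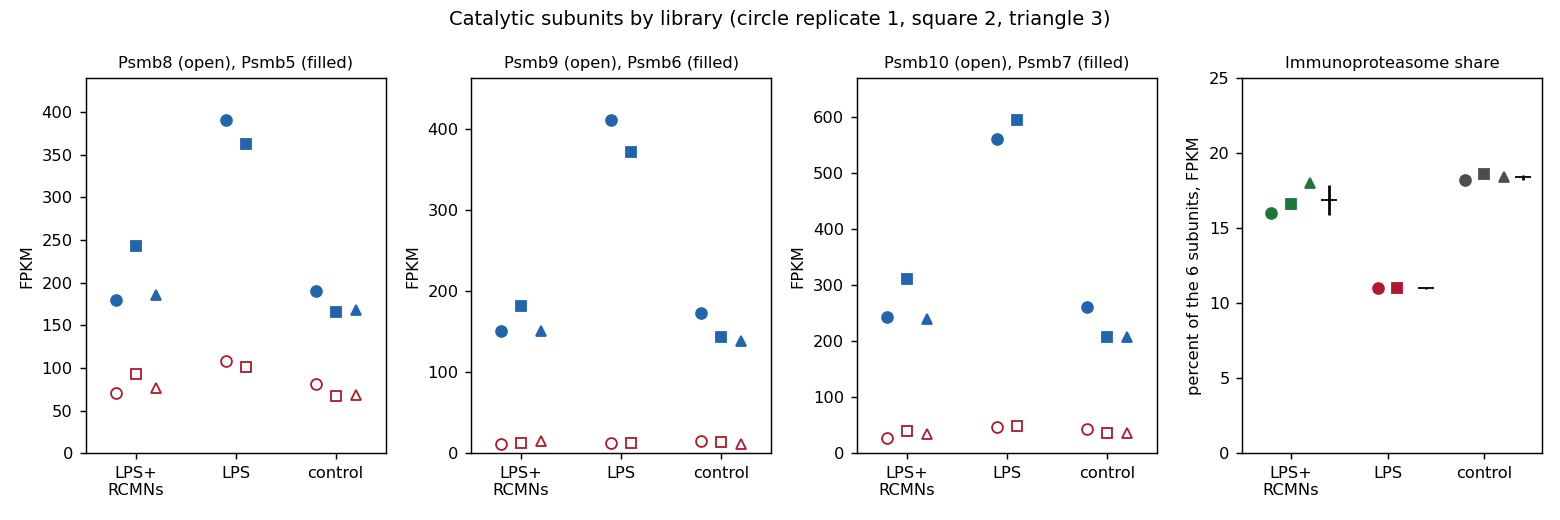
The first 3 panels give FPKM in each library for each immunoproteasome subunit (open) and the subunit it replaces (filled), and the last gives the percentage of the 6 subunits that the immunoproteasome genes make up, with the mean and SD of each group as a bar. The LPS libraries, at 11.0%, lie below the LPS+RCMNs libraries (16.0% to 18.0%) and the control libraries (18.2% to 18.6%).

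The sequences upstream of a standard and of both MHC-linked immunoproteasome genes are shown because these genes differ in how far they moved in LPS. Each line gives the 250 bases before the RefSeq start site (GRCm38.p6, the mm10 assembly), read 5′ to 3′ along the gene's strand, with the match to a searched motif in capitals.
Psmb5, chr14:54617996-54618245, minus strand: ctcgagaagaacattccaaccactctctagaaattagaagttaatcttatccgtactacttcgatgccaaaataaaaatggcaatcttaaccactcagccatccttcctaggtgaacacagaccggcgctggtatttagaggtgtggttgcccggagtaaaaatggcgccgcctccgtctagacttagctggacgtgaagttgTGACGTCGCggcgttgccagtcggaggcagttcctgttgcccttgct
Psmb8, chr17:34197945-34198194, plus strand: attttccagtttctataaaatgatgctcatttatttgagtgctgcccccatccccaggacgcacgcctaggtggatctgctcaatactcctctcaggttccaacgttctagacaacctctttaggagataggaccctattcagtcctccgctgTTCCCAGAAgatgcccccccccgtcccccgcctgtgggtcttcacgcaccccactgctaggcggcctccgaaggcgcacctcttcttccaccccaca
Psmb9, chr17:34187331-34187580, minus strand: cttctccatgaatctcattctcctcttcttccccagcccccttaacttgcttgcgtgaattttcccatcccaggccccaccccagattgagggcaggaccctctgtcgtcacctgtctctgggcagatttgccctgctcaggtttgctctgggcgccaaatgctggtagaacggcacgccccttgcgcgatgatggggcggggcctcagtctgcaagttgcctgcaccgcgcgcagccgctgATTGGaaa

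The capitals in Psmb5 match TGACNNNGC, the core of the antioxidant response element bound by Nrf1 and Nrf2, starting 47 bases before the start site. Those in Psmb8 match TTCNNNGAA, the gamma-activated site, starting 97 bases before it, and those in Psmb9 match the CCAAT box on the other strand. Of the 49 genes, 42 had an upstream sequence in the RefSeq table (all but Psmb1, Psmb2, Psmb7, Psmc3, Psmd3, Psmd7 and Psmg2), and both strands were searched. TGACNNNGC was found in 5 of the 42 (11.9%: Psmb5, Psmb6, Psmc6, Psmd12 and Psmd9), beside 11.5% of all genes with such a sequence. CCAAT was found in 15 of 42 (35.7%, beside 37.5%), TTCNNNGAA in Psmb8 and Psmg1 (4.8%, beside 8.1%), and the core of the interferon-stimulated response element in Psmb3, Psmd4 and Psmd9 (7.1%, beside 3.5%). For 42 genes a share rests on few matches, and a match is a description of letters in this window.

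Psmb11, the thymus-specific beta subunit, had low counts: 0 in LPS+RCMNs replicate 2 and 9 to 23 in the other libraries, beside a detection floor of 3 counts. It measured 0.785, 0 and 1.06 CPM in LPS+RCMNs, 0.545 and 1.33 CPM in LPS and 0.65, 0.791 and 1.07 CPM in control, resting on 38, 31 and 55 counts in the 3 groups. The groups overlapped and it was called in no comparison.

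In the 19S cap, all 17 subunit genes rose in LPS versus control without matching, beside 31.4% of all tested genes, and 12 rose with it, beside 21.6%. The 6 ATPases of the base, which unfold the substrate, had log2 fold changes for LPS versus control of 1.19 to 1.62 before matching and 0.29 to 0.70 after. Psmc4 had the largest, at 102, 136 and 107 CPM in LPS+RCMNs, 356 and 318 CPM in LPS and 111, 109.6 and 108 CPM in control, with 1.62 ± 0.13 before and 0.70 ± 0.09 after matching (edgeR adjusted p = 5.58e-04). Psmc6 had the smallest before matching, 1.19 ± 0.10, at 137, 152 and 140.4 CPM in LPS+RCMNs, 305 and 343 CPM in LPS and 151, 138 and 138 CPM in control. In both genes the LPS libraries lay well above all others. Of the 11 other cap subunits, 6 rose after matching: Psmd1, Psmd4 (a ubiquitin receptor), Psmd7, Psmd8, Psmd12 and Psmd14 (the deubiquitinase of the lid). Without the 2 libraries that stood apart, 10 of the 11 rose after matching, beside 31.1% of all tested genes. Psmd4 had the largest log2 fold change before matching, 1.42 ± 0.12, at 138, 182 and 149.8 CPM in LPS+RCMNs, 423 and 376 CPM in LPS and 157, 145 and 146 CPM in control. Psmd11, a lid subunit, had the smallest, 0.51 ± 0.08, at 174, 179 and 171 CPM in LPS+RCMNs, 203 and 204 CPM in LPS and 138, 147 and 145 CPM in control. Its 3 groups did not overlap, and after matching its log2 fold change was -0.05 ± 0.08 (not called).

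All 3 chaperones of the 19S base rose in LPS with and without matching, with a median log2 fold change of 0.99 after it. Psmd9 stood at 29.8, 43.0 and 31.0 CPM in LPS+RCMNs, 85.7 and 80.5 CPM in LPS and 43.4, 31.4 and 33.4 CPM in control. Its log2 fold change for LPS versus control was 1.20 ± 0.18, and 1.12 ± 0.17 after matching (edgeR adjusted p = 0.00104). Psmd10, also called gankyrin, stood at 31.2, 34.0 and 27.2 CPM in LPS+RCMNs, 104 and 96.1 CPM in LPS and 33.7, 28.4 and 29.7 CPM in control, with 1.71 ± 0.12 before and 0.99 ± 0.10 after matching. Psmd5 had the smallest of the 3, 1.05 ± 0.11 before and 0.60 ± 0.09 after, at 58.2, 67.4 and 57.4 CPM in LPS+RCMNs, 117 and 105 CPM in LPS and 57.0, 50.4 and 53.4 CPM in control. For all 3, both LPS libraries lay above every other library.

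Of the 4 chaperones of the 20S core, 4 rose in LPS versus control without matching (beside 31.4% of all tested genes), and none rose and Psmg2 fell with it (beside 21.6% each way). Without the 2 libraries that stood apart, Psmg3 (0.22) and Psmg4 (0.49) rose in the matched fit. Psmg4 had a log2 fold change for LPS versus control of 1.93 ± 0.20, and 0.47 ± 0.17 after matching (not called), at 7.80, 11.6 and 7.02 CPM in LPS+RCMNs, 34.6 and 38.0 CPM in LPS and 10.1, 9.36 and 9.15 CPM in control. Psmg2 had 0.66 ± 0.14 before and -0.37 ± 0.12 after matching, at 42.8, 57.6 and 43.3 CPM in LPS+RCMNs, 68.2 and 80.3 CPM in LPS and 44.3, 47.3 and 49.3 CPM in control. At 484 bases, Psmg4 was the shortest of the 49 genes.

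Activators that open the core without ubiquitin differed from each other. Psme1 and Psme2 encode the alternating subunits of the interferon-inducible PA28 ring. Psme1 measured 84.0, 77.8 and 84.0 CPM in LPS+RCMNs, 191 and 179 CPM in LPS and 104, 96.2 and 102 CPM in control, and Psme2 measured 102, 108 and 105 CPM in LPS+RCMNs, 219 and 204 CPM in LPS and 95.7, 86.1 and 91.4 CPM in control. LPS values were the highest for both. The log2 fold change for LPS versus control was 0.88 ± 0.09 for Psme1 and 1.22 ± 0.09 for Psme2, and after matching Psme1 fell (-0.34 ± 0.10, edgeR adjusted p = 0.0254) and Psme2 was not called (-0.08 ± 0.08). Per length, the ratio of Psme1 to Psme2 in FPKM was 0.749, 0.653 and 0.727 in LPS+RCMNs, 0.797 and 0.802 in LPS and 0.990, 1.02 and 1.02 in control. LPS+RCMNs and LPS thus both lay below control in this ratio, with no overlap. Psme1 is the longer of the 2 genes, at 928 against 847 bases, and the part of length in this ratio was not tested.

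Psme3, the nuclear PA28 gamma, measured 297, 323 and 281 CPM in LPS+RCMNs, 480.5 and 374 CPM in LPS and 249, 296 and 291 CPM in control. Its log2 fold change for LPS versus control was 0.62 ± 0.13, and 0.24 ± 0.10 after matching (not called). Psme4, which encodes PA200 and is the longest of the 49 genes at 6374 bases, measured 80.4, 93.5 and 77.6 CPM in LPS+RCMNs, 64.6 and 55.4 CPM in LPS and 92.0, 80.1 and 84.3 CPM in control. It was lowest in LPS and fell by 0.51 ± 0.12 on the log2 scale, whereas after matching it rose by 0.36 ± 0.13 (edgeR adjusted p = 0.0482), so its direction turns with the length correction. Without LPS replicate 2 the unmatched fall was not called (-0.35, adjusted p = 0.0873). Psme2b, a near copy of Psme2 whose reads may be split with it, measured 1.72, 1.06 and 2.84 CPM in LPS+RCMNs, 1.03 and 1.70 CPM in LPS and 4.77, 4.89 and 3.25 CPM in control, and its fall in LPS (-1.65 ± 0.43, adjusted p = 0.00808) is uncertain for that reason and was not called without LPS replicate 1 (-1.30, adjusted p = 0.0879). Psmf1, which encodes the proteasome inhibitor PI31, measured 43.3, 49.0 and 42.0 CPM in LPS+RCMNs, 94.2 and 90.1 CPM in LPS and 43.9, 40.7 and 43.5 CPM in control. It was the one role for which matching raised the median, at 1.11 ± 0.10 before and 1.26 ± 0.09 after (adjusted p = 2.48e-05), the highest matched value of the 49. Psmc3ip, the gene outside the proteasome, measured 18.3, 15.6 and 16.2 CPM in LPS+RCMNs, 31.9 and 33.1 CPM in LPS and 12.4, 16.2 and 15.9 CPM in control, and its log2 fold change of 1.13 ± 0.14 became 0.17 ± 0.17 after matching (not called).

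**Figure D4:**
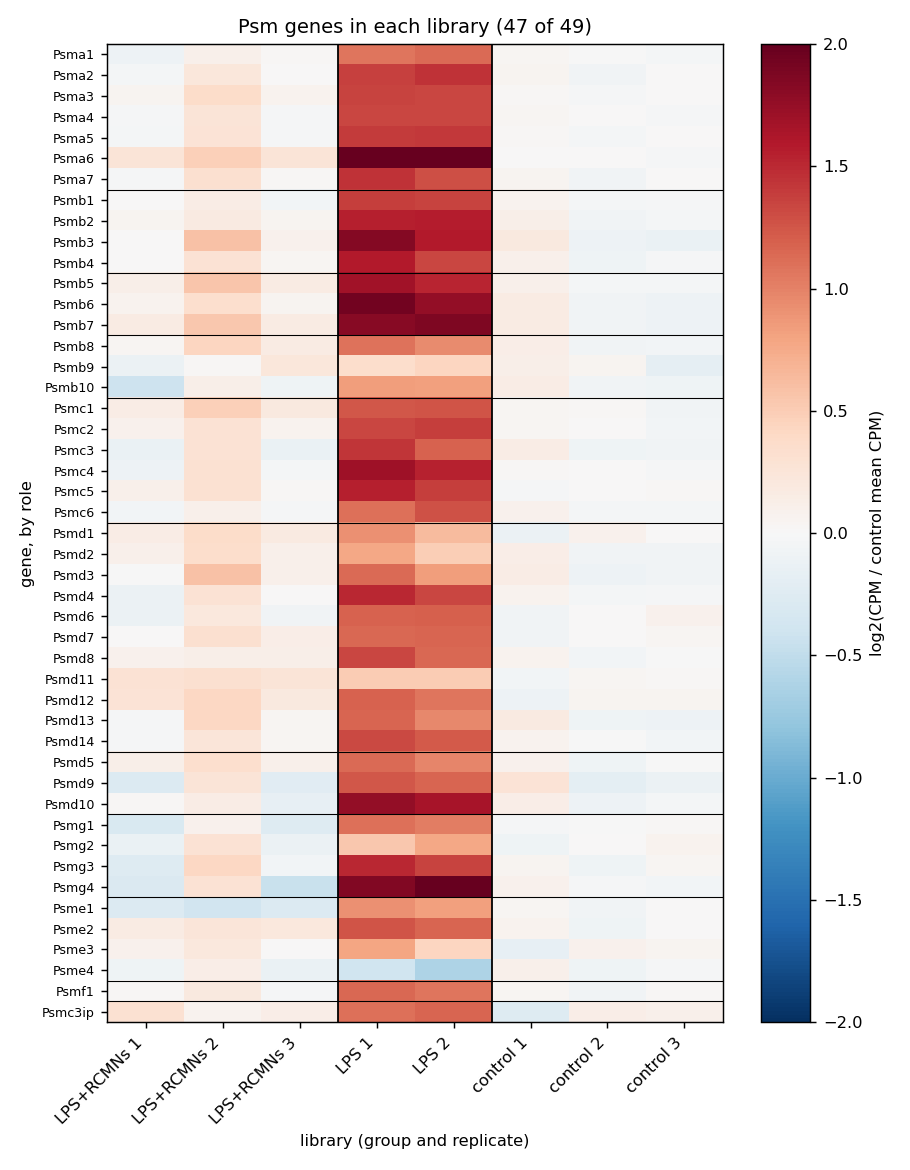
Log2 of CPM over the control mean for 47 of the 49 genes (Psmb11 and Psme2b, at low counts, are left out), in rows by role, and the 8 libraries in columns. Both LPS columns are red in all rows but Psme4, and LPS+RCMNs replicate 2 is slightly redder than replicates 1 and 3 in most rows.

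LPS+RCMNs versus LPS sets nanoparticles given with LPS against LPS with no separate dose stated. Fold change and length had a rank correlation of 0.59 across all tested genes and 0.55 across the 49. The LPS libraries also hold the erythroid transcripts, so an effect of the nanoparticles cannot be told apart from other differences of those libraries. The comparison shares its LPS libraries with LPS versus control, and the values of the 49 genes in LPS+RCMNs were close to those of control. The sum was 6652, 8026 and 6758 CPM in LPS+RCMNs, against 15910 and 14860 CPM in LPS, a ratio of means of 0.464. Every LPS+RCMNs library lay above every LPS library for 1 of the 49 genes and below for 46, beside 38% and 36.9% of all tested genes. By edgeR's quasi-likelihood test 1 of 49 was higher (Psme4, 0.48 ± 0.12), 45 were lower and 3 were not called (Psmb9, Psmb11 and Psme2b), beside 29.8% of all tested genes called higher and 29.5% lower. The median log2 fold change was -1.18, beside 0.03 for all tested genes. In the matched fit 4 were higher, 16 lower and 29 not called, beside 19.6% and 19.1% of all tested genes, with a median of -0.18. Without the 2 libraries that stood apart, 1 was higher and 46 lower before matching (beside 36.7% and 37.1%), and 5 were higher and 29 lower after it (beside 31.2% and 31.3%). Without LPS replicate 1, the calls of Psmd2 (-0.32), Psmd3 (-0.61) and Psme3 (-0.33) were lost, and without LPS replicate 2 that of Psme4 (0.34). Psmd11 (-0.22) lost its call without any single library other than control replicate 1 or LPS+RCMNs replicate 2.

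In the matched fit the genes lower in LPS+RCMNs than in LPS again included all 3 base chaperones, with Psmd9 at -1.18 ± 0.17 and Psmd5 at -0.44 ± 0.09, and 5 of the 6 base ATPases (all but Psmc1). Psmf1 was lower by -1.18 ± 0.09 and Psma6 by -0.50 ± 0.07. The 4 genes that were higher were Psmb9 (0.66 ± 0.15), Psmg2 (0.37 ± 0.12), Psmd11 (0.28 ± 0.08) and Psme2 (0.27 ± 0.08), and without matching the log2 fold changes were -0.34 for Psmb9, -0.63 for Psmg2 and -0.22 for Psmd11, while Psme2 was called lower. Their direction therefore turns with the length correction. In FPKM, which carries no TMM scaling, 2 of them were also higher in LPS+RCMNs than in LPS with no length correction. Mean FPKM was 92.4 against 83.5 for Psmd11, without overlap, and 13.2 against 12.9 for Psmb9, with overlap. The immunoproteasome share was 5.87 percentage points higher in LPS+RCMNs than in LPS, without overlap (two-sided exact permutation p = 0.2, the smallest that 3 against 2 libraries allow).

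LPS+RCMNs versus control sets no LPS library against another group, although the LPS libraries share in the estimate of the spread. Fold change and length had a rank correlation of -0.09 across all tested genes and -0.02 across the 49. By edgeR's quasi-likelihood test 2 of 49 rose (Psma6 and Psmd11), none fell and 47 were not called, beside 4.33% of all tested genes called higher and 3.23% lower, so the share called lay near the background. The sum was 6652, 8026 and 6758 CPM in LPS+RCMNs and 6683, 6363 and 6382 CPM in control, and these ranges overlap. Psma6 rose by 0.34 ± 0.09 on the log2 scale (adjusted p = 0.0438) and also in the matched fit (0.32 ± 0.06, adjusted p = 0.0205). Psmd11 rose by 0.29 ± 0.07 (adjusted p = 0.0438), a call lost in the matched fit (0.23 ± 0.07, adjusted p = 0.0741), in which 1 of 49 rose and none fell, beside 4.55% and 2.9% of all tested genes. For both, every LPS+RCMNs library lay above every control library. Both calls held without control replicate 1 and without LPS+RCMNs replicate 2, and both were lost in a fit of the LPS+RCMNs and control libraries alone. Both were also lost without any other single library, the LPS libraries included, at edgeR adjusted p of 0.0616 to 0.135 for Psma6 and 0.0522 to 0.149 for Psmd11.

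The ranges of LPS+RCMNs and control did not overlap for 13 genes higher and 2 lower of the 49, beside 14.1% and 15.7% of all tested genes. The 2 lower were Psme1 (-0.30 ± 0.08, adjusted p = 0.0517 by edgeR's test) and Psme2b (-1.19 ± 0.35, adjusted p = 0.0787). Among the 13 higher was Psme2 (0.21 ± 0.08, adjusted p = 0.145), so the partners of the PA28 ring lay on opposite sides of control. Within the other roles the log2 fold changes ran from 0.01 (Psma1) to 0.34 (Psma6) in the alpha ring, from 0.01 (Psmc6) to 0.28 (Psmc1) among the ATPases, from 0.01 (Psmd6) to 0.29 (Psmd11 and Psmd12) among the other cap subunits, and from -0.15 (Psmg1) to 0.06 (Psmg3) among the core chaperones. The genes at these ends in LPS+RCMNs versus control that have no library values above follow. Psmc1 measured 235, 294 and 243 CPM in LPS+RCMNs, 502 and 505 CPM in LPS and 217, 216 and 202 CPM in control, and Psmd12 measured 204, 225 and 193 CPM in LPS+RCMNs, 383 and 356 CPM in LPS and 157, 175 and 175 CPM in control. Both were higher in every LPS+RCMNs library than in any control library, and neither was called (edgeR adjusted p = 0.128 and 0.0861). Psmd6 measured 108, 135 and 111 CPM in LPS+RCMNs, 264 and 268 CPM in LPS and 111, 117 and 124 CPM in control. Psmg1 measured 33.9, 44.8 and 35.1 CPM in LPS+RCMNs, 90.5 and 85.5 CPM in LPS and 41.5, 41.7 and 42.8 CPM in control, and Psmg3 measured 25.5, 40.9 and 29.4 CPM in LPS+RCMNs, 86.8 and 78.3 CPM in LPS and 31.7, 28.9 and 31.3 CPM in control. For these 3, the LPS+RCMNs and control ranges overlapped. Psmb10 made up 11.4% of Psmb10 plus Psmb7 in LPS+RCMNs and 14.6% in control, without overlap (two-sided exact permutation p = 0.1, the smallest possible).

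**Figure D5:**
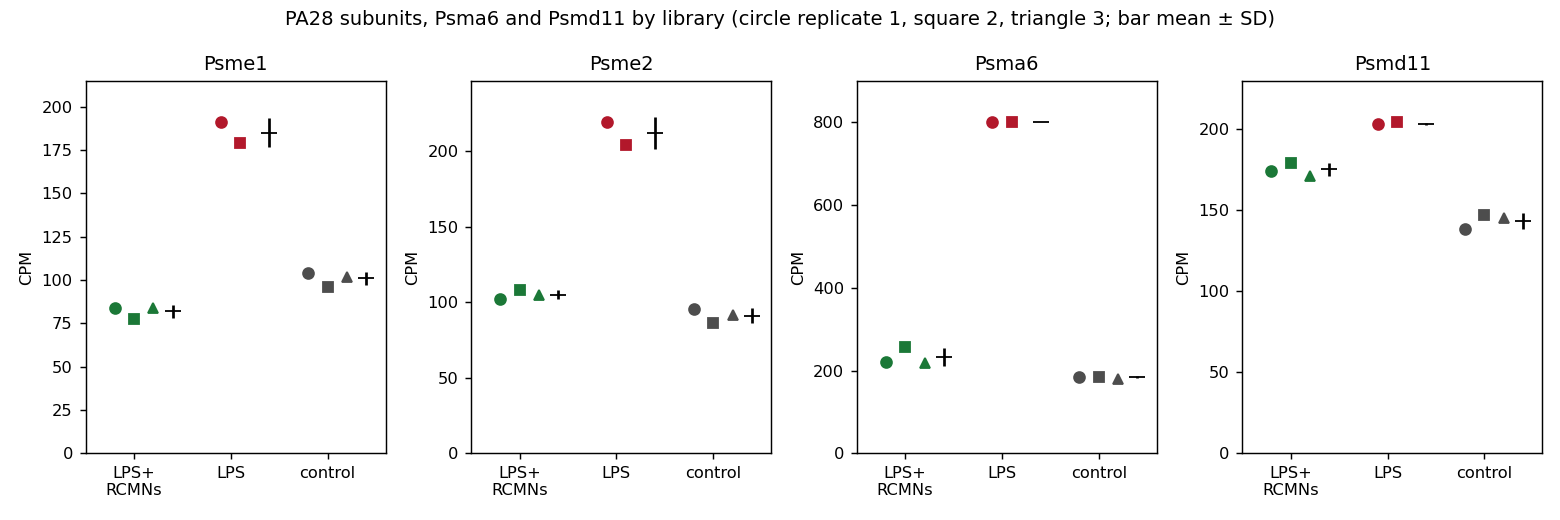
CPM of Psme1, Psme2, Psma6 and Psmd11 in each library, with the mean and SD of each group as a bar. Psme1 is lower in LPS+RCMNs (77.8 to 84.0 CPM) than in control (96.2 to 104 CPM), Psme2 is higher (102 to 108 CPM against 86.1 to 95.7 CPM), and all 4 genes are highest in LPS.

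The libraries that stood apart bear on these small differences. LPS+RCMNs replicate 2 was the highest of its group for 43 of the 49 genes (87.8%), beside 44.0% of all tested genes, by a median of 0.25 on the log2 scale over the mean of the other two. Control replicate 1 was the highest of its group for 37 of the 49 (75.5%, beside 44.4%), by a median of 0.10. Leaving these 2 libraries out is a choice made from the same data, and it raised the calls among all tested genes as well. In LPS+RCMNs versus control, 4.33% were called higher with them and 14.8% without them. Without them, 7 of the 49 genes rose, beside that 14.8%: Psma6 (0.30), Psme2 (0.26), Psmb7 (0.28), Psmd11 (0.27), Psmc1 (0.22), Psmb5 (0.21) and Psmd12 (0.21). Psmg1 (-0.26) and Psme1 (-0.21) fell, beside 10.6% of all tested genes. The same 7 and 2 genes were called when the length and level surface was also removed, beside 15.2% and 12.1% of all tested genes.

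Genes that work with the proteasome were followed in 6 lists. Their counts in LPS versus control stand beside 31.4% of all tested genes called higher and 32.1% lower before matching, and 21.6% higher and 21.6% lower after it. Of the ubiquitin genes and the ubiquitin-activating enzymes, 5 of 6 rose and 1 fell before matching, with a median log2 fold change of 1.48, and 4 of 6 rose after it, with a median of 0.36. Ubb, a polyubiquitin gene, measured 758, 873 and 787 CPM in LPS+RCMNs, 2809 and 2766 CPM in LPS and 806, 636 and 609.6 CPM in control, a rise of 2.03 ± 0.13 before and 0.86 ± 0.12 after matching. Both LPS libraries were far above the rest for Ubb.

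Of 12 proteasome partners whose symbols lie outside the rule, 9 rose, 2 fell and 1 was not called in LPS versus control, and 4 rose and none fell after matching, beside 21.6% of all tested genes each way. Pomp, the maturation protein of the core, measured 132, 148 and 132 CPM in LPS+RCMNs, 366 and 355 CPM in LPS and 135, 135 and 135 CPM in control. Its rise of 1.42 ± 0.09 became -0.05 ± 0.07 after matching (not called). Adrm1, a ubiquitin receptor of the cap, measured 128, 149.6 and 124 CPM in LPS+RCMNs, 315 and 291 CPM in LPS and 95.3, 124 and 122 CPM in control, and rose by 1.41 ± 0.13 before and 0.49 ± 0.12 after matching. Of 13 genes of the Vcp segregase and the ubiquitin shuttles, 7 rose and 1 fell before matching and 9 rose and none fell after. Of 6 peptidases that trim proteasome products, 4 rose and 1 fell before matching and 5 rose and none fell after.

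Among 12 regulators of proteasome genes, 3 rose, 5 fell and 4 were not called in LPS versus control, and after matching 5 rose and 4 fell, beside 31.4% higher and 32.1% lower of all tested genes before matching and 21.6% each way after it. Nfe2l1, which encodes the transcription factor Nrf1 that raises proteasome genes when degradation falls short, measured 136, 171 and 134 CPM in LPS+RCMNs, 132 and 121 CPM in LPS and 176, 126 and 133 CPM in control. It was not called (-0.19 ± 0.16), and the groups overlapped. Irf1, an interferon-induced activator of immunoproteasome genes, measured 9.22, 10.0 and 9.18 CPM in LPS+RCMNs, 6.78 and 8.18 CPM in LPS and 16.8, 10.5 and 12.5 CPM in control, and fell in LPS versus control by 0.83 ± 0.21 on the log2 scale.

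Of 10 genes of peptide transport and class I loading, the step after the proteasome in antigen presentation, 5 rose, 1 fell and 4 were not called in LPS versus control, and 1 rose and 1 fell after matching, beside 21.6% of all tested genes each way. Tap1, the peptide transporter encoded between Psmb8 and Psmb9, measured 26.2, 27.4 and 26.9 CPM in LPS+RCMNs, 31.1 and 24.4 CPM in LPS and 31.8, 22.5 and 21.8 CPM in control. The groups overlapped, and its log2 fold change for LPS versus control was 0.13 ± 0.18 (not called).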

How the data were processed

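For 8 MH-S libraries the authors deposited read counts and FPKM per gene, per the file headers. The read counts the authors deposited are expected counts (estimated counts): 77.8% of those above 0 differed from a whole number by over 0.001. They were rounded. The submitters' processing notes name mm10, and the aligner and counter were not given in the sources used here. Library codes in the descriptions tied columns to samples, which left 4 per-sample columns unused. A GRCm38.p6 gene table matched 17468 of 17518 IDs (99.7%) and all 49 Psm genes. The members and lists were chosen with earlier results of these data known.

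All 8 libraries in 3 groups were fitted with edgeR 4.0.16 (filterByExpr, TMM, quasi-likelihood test, Benjamini-Hochberg adjustment over 11911 genes; limma 3.58.1, DESeq2 1.42.0, R 4.3.3). The LPS libraries had TMM factors of 0.779 and 0.803, and all other libraries 1.05 to 1.13. The biological coefficient of variation was 14.5%. SE is the log2 fold change over the square root of F. FPKM carries no TMM scaling, so on log2(FPKM + 1) the median of all genes for LPS versus control was -0.33, beside -0.04 on the count scale. In the length-and-level-matched fit a loess surface of each library (span 0.4) on implied length and mean level was removed as an offset. The unmatched fit was tested on simulated counts that carried no length trend, and the length-and-level-matched fit was not tested in that way.

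Named genes were Psmb5 to Psmb10 of the catalytic set, the activators and PI31, the extremes of each other role in LPS versus control and in LPS+RCMNs versus control, and 8 fixed pathway genes, of which 2 are not reported here. Total counts of 18.6 to 21.2 M per library set the precision, and a floor of 3 counts covers counting error only.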

Additional observations from a re-analysis of the deposited data

How the results depend on the processing

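Counts of the 49 genes by edgeR's test were recomputed under 21 alternatives per gene. Not every changed count is given here. For LPS versus control (45 higher, 2 lower), 35 were higher and 2 lower with the length trend removed. With the length and level surface removed, 21 were higher and 4 lower. Without the 2 libraries that stood apart as well (a fit chosen after seeing the data), 34 were higher and 4 lower. At an absolute log2 fold change of at least 1, 1 was lower, and leaving out 1 library gave 1 to 2 lower. For LPS+RCMNs versus LPS (1 higher, 45 lower), 2 were higher and 31 lower with the length trend removed. With the surface removed, 4 were higher and 16 lower, and without both libraries as well, 5 higher and 29 lower. At the fold minimum 0 were higher, and leaving out 1 library gave 0 to 1 higher. For LPS+RCMNs versus control (2 higher, 0 lower), the fits of the 2 groups alone, with no filter, with the fold minimum, with limma on log2(FPKM + 0.1) and with the replicate block gave 0 higher, the surface and limma on log2(FPKM + 1) gave 1, and the fits without both libraries gave 7 with or without the surface. Lower calls were 2 without both libraries (with or without the surface), 2 with DESeq2, 2 with limma on log2(FPKM + 1) and 1 with log2(FPKM + 0.1); leaving out 1 library gave 0 to 2 higher. With CPM in place of FPKM the immunoproteasome share differed by -8.93 points (LPS versus control) and by 7.11 points (LPS+RCMNs versus LPS). Replicate numbers did not pair the libraries (correlations of same-numbered deviations from -0.34 to 0.20), and the replicate block gave 45 higher and 2 lower, 1 higher and 44 lower, and 0 and 0 in the 3 comparisons.

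Single genes reversed sign when length was removed, given as length trend, surface, surface without both libraries where there are 3 values, and as the last pair of these where there are 2. For LPS versus control these were Psmb9 (-0.79, -0.61, -0.58), Psmg2 (-0.27, -0.37, -0.43), Psme1 (-0.16, -0.34, -0.33), Psme4 (0.34, 0.36, 0.43), Psmb10 (surface, -0.05), Psmd11 (-0.05, -0.08), Psmg1 (-0.00, -0.03) and Psme2 (-0.08, -0.06). For LPS+RCMNs versus LPS they were Psmb9 (0.83, 0.66, 0.72), Psmg2 (0.28, 0.37, 0.28), Psme2 (0.11, 0.27, 0.31), Psme4 (-0.30, -0.35, -0.44), Psmb8 (0.00, 0.16, 0.10), Psmd11 (0.07, 0.28, 0.30), Psmc3ip (0.06, 0.01, 0.12), Psme1 (surface 0.02, without both libraries 0.11), and with the surface alone Psma7 (0.04), Psmb3 (0.00) and Psmb5 (0.03). Psmd11 was also 0.14 with limma on log2(FPKM + 1) and 0.14 with log2(FPKM + 0.1), a scale without TMM. In FPKM with no length removed, mean Psmb9 was 13.4 in control, 12.9 in LPS and 13.2 in LPS+RCMNs, with overlapping libraries. The other values listed come from fits with length, or length and level, removed. The cause of the sign changes was not tested. Some of the turned values lay within their SE of 0 with the surface removed, so a lost difference is all they show. For LPS+RCMNs versus LPS, these included Psma7 (0.04 ± 0.09), Psmb3 (0.00 ± 0.15) and Psmb5 (0.03 ± 0.10). For LPS versus control, they included Psmb10 (-0.05 ± 0.12) and Psmg1 (-0.00 ± 0.10). Depth limits Psmb11 and Psme2b, and 2 LPS libraries limit all LPS values.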
